A study of Mus musculus with 14 samples.

Results

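The genes of 9 integrin subunits and of the selectin ligand Selplg were read in mouse Th1 and Th2 cells. The members were all probe sets listed with Itgb1, Itgb2, Itgb3, Itgb7, Itgae, Itgal, Itga4, Itga6, Itgav or Selplg alone, which gave 27 of the 45101 probe sets on the array and 10 of its 18194 named genes. Of the 27, 23 passed a filter on dim probe sets, which kept those above the array median on at least 2 of the 14 arrays. The 4 outside it, 3 for Itgb1 and 1 for Itga4, stayed between 1.8 and 17.0 in normalised signal on every array.

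Integrins are surface receptors made of 1 alpha and 1 beta chain, and the pairing sets what a T cell can hold on to. In lymphocytes, Itgal with Itgb2 forms LFA-1, which binds ICAM proteins at the immune synapse and on vessel walls. Itga4 pairs with Itgb1 to bind VCAM-1 and fibronectin, or with Itgb7 to bind MAdCAM-1 of gut vessels. Itgae, the CD103 chain, pairs with Itgb7 to bind E-cadherin of epithelium, Itgav with Itgb3 binds vitronectin and osteopontin, and Itga6 with Itgb1 binds laminin. Selplg encodes PSGL-1, a mucin-like protein that binds P-selectin once sugars have been added to it.

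The study is about the response of Th1 and Th2 cells to inhibition of Trpm4, a calcium-activated cation channel. Mouse T cells had been polarised to Th1, the interferon gamma producing helper cell, or to Th2, the interleukin 4 producing one, for 2 weeks. In each cell type 1 array was run for a dominant negative (DN) Trpm4 retrovirus and 1 for the empty vector, at 12 h and at 4 h of stimulation, and 1 each for Trpm4 siRNA, Thy1 siRNA and no treatment. The siRNA control was itself directed at a gene, Thy1, a surface glycoprotein of T cells. The labels give no mouse strain, no agent of stimulation, and no stimulation time for the siRNA and untreated arrays. Each condition had a single array, so pairs of matched conditions stood in for replicates, and p-values measure only the spread between these arrays. Values called normalised signal are the deposited intensities after quantile normalisation over the 14 arrays, and log2 values are log2(normalised signal + 16), which understates differences of dim probe sets.

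The arrays summed to between 7324678 and 10608719 in deposited signal, and precision is limited by how few there are. The cell types carried their markers: 4 of 6 Th1 markers were higher in Th1 and 0 lower, and 5 of 6 Th2 markers were lower in Th1 and 0 higher. Trpm4 had a normalised signal of 59.0 with Trpm4 siRNA and 107.4 with Thy1 siRNA in Th1 cells, and of 82.1 and 136.3 in Th2 cells. With DN Trpm4 it had 577.4, against 82.6 with vector, in Th1 cells at 12 h, and 107.5 against 65.6 at 4 h. In Th2 cells it had 117.1 with DN Trpm4 against 137.8 with vector at 12 h, and 111.6 against 103.5 at 4 h, so the Th2 arrays showed no higher Trpm4 signal at 12 h and a similar one at 4 h. The labels do not say whether this probe set reads the DN construct, so it does not check the inhibition. On 6 retrovirus arrays, which were all those of Th2 cells and those of Th1 cells at 4 h, the 3′ control probe set of Gapdh exceeded the 5′ one by 5.22 to 5.72 on the log2 scale, against -0.25 to 0.04 on the other 8. This 3′ bias therefore differed between the cell types at 12 h and between the times in Th1 cells. Markers of B cells, myeloid cells, platelets, mast cells and basophils, fibroblasts and endothelium, and CD8 and NK cells had 0 genes called between Th1 and Th2 (limma), and of 7 T cell markers Cd5 was higher in Th1. Their summed normalised signals overlapped, from 166.5 to 341.7 in Th1 and from 236.4 to 500.3 in Th2 for the 7 myeloid markers, and from 101.8 to 262.0 in Th1 and from 109.3 to 269.6 in Th2 for the 5 platelet markers. Erythroid markers, 2 of 4 on the array, stayed below the array median throughout. In such bulk RNA, fewer cells of a type and less RNA per cell cannot be told apart.

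The RefSeq promoter table (GRCm38.p6) matched 4 of the 10 members, Itgb1, Itgb7, Itga4 and Itgav. The windows of Itgb1 and Itgb7 are shown because these genes differed between Th1 and Th2 cells in opposite directions. Each runs from 250 bases before the start site to 50 after it, written 5′ to 3′ on the strand of the gene. Itgb1 lies at chr8:128685404-128685703 on the plus strand, and Itgb7 at chr15:102231886-102232185 on the minus strand. Capitals mark matches on either strand to a GATA motif (either AGATAA or AGATAG or TGATAA or TGATAG) or a RUNX motif (TGTGGT).
Itgb1: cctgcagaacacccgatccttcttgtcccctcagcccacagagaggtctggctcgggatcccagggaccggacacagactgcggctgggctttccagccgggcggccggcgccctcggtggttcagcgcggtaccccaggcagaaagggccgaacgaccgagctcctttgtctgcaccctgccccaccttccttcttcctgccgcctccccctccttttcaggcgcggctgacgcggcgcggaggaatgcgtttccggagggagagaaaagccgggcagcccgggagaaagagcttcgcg
Itgb7: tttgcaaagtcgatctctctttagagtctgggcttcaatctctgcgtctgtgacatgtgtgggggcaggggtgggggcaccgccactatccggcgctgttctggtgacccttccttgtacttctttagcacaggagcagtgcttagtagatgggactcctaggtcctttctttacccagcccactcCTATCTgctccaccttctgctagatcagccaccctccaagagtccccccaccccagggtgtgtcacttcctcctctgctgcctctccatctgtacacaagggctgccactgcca
The Itgb7 window held 1 GATA match, at position -64 from the start site, and no RUNX match. The Itgb1 window held neither. GATA letters occurred in 29.8% and RUNX letters in 16.8% of 32851 promoter windows of this length, so a match describes these letters and no binding.

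Of the 10 genes, 4 were called in the pairwise comparison of Th1 minus Th2, although their Th1 and Th2 arrays overlapped on the probe set of highest mean. Itgb1 was higher in Th1 cells, 2.73-fold on the log2(normalised signal + 16) scale, while Itgb3, Itgb7 and Itgae were lower, 3.49-fold, 3.47-fold and 6.05-fold. Itgb2, Itgal, Itga4, Itga6, Itgav and Selplg did not pass. The fit used limma on 7 pairs of arrays of the same treatment and time, and called a probe set at a Benjamini-Hochberg adjusted p under 0.05 over all 29467 probe sets. It called 8 of the 23 member probe sets, 3 higher and 5 lower in Th1, where 9.79% of all probe sets were called. The median difference was -0.27 over the 10 genes, each read on its probe set of highest mean, and 0.01 over all probe sets. Of all calls 37.3% were higher in Th1, and 25.1% on the values as deposited.

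**Figure D1:**
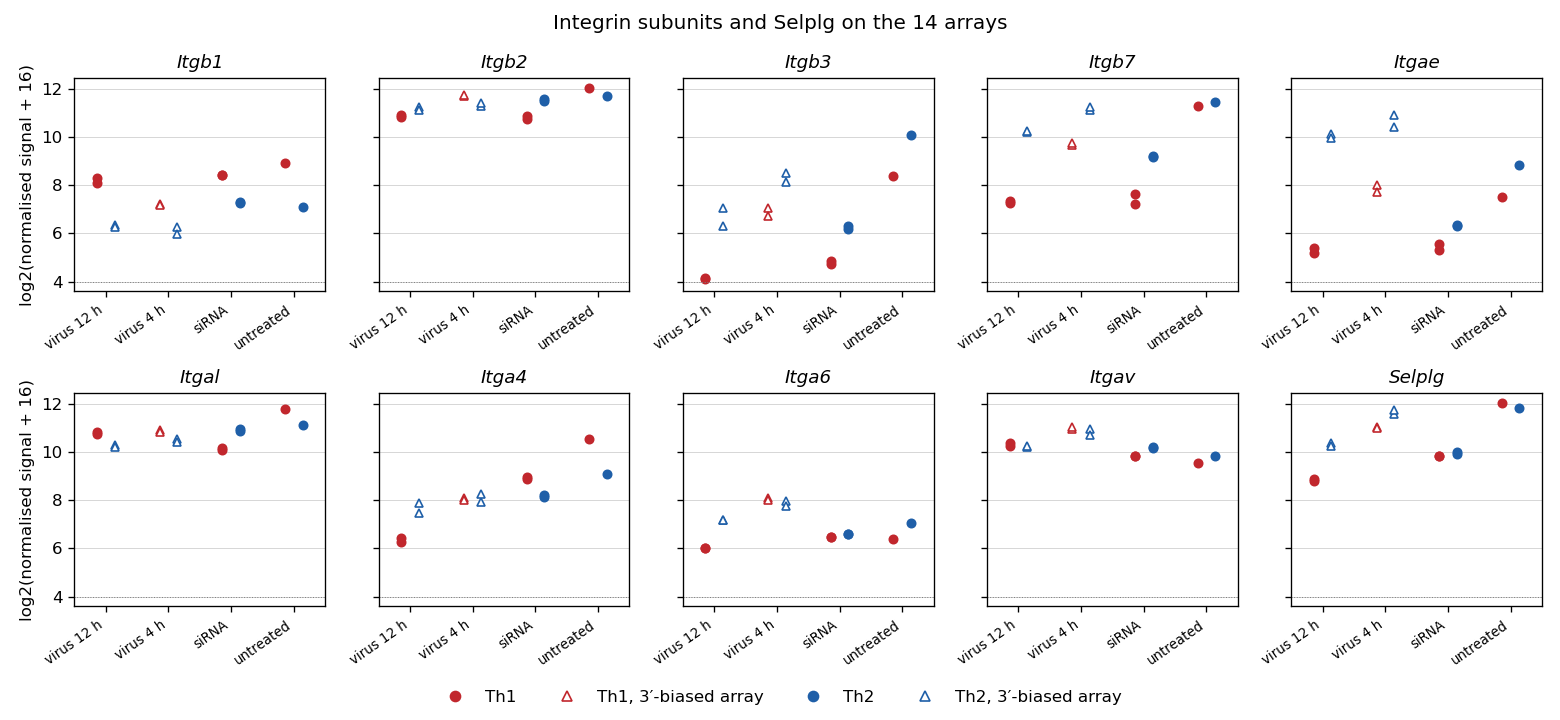
Level of each member gene on the 14 arrays, as log2(normalised signal + 16) on its probe set of highest mean, by set of arrays, with 1 point per array, Th1 left of Th2 and open triangles for arrays with 3′ bias. Itgb3 comes close to the floor at 4 (dotted line) in Th1 cells at 12 h, and Itgb7, Itgae and Selplg span wide ranges over the sets.

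Itgb1 encodes the beta 1 chain, the shared partner of many alpha chains. Its normalised signal in Th1 cells was 303.5 and 256.3 at 12 h with DN Trpm4 and vector, 131.0 and 131.8 at 4 h, 332.3 and 331.0 with Trpm4 and Thy1 siRNA, and 476.1 untreated. In Th2 cells the same arrays gave 60.4 and 65.3, 46.8 and 60.4, 144.2 and 138.9, and 119.2. Each Th1 array exceeded its Th2 partner, although the lowest Th1 arrays, at 4 h, were below the Th2 siRNA arrays. The difference was 1.45 ± 0.16 (SE, 7 pairs) on the log2 scale, higher in 7 of 7 pairs (limma, adjusted p = 0.000702). A second probe set gave 1.54 ± 0.13 (adjusted p = 0.000125), and its Th1 arrays, from 164.5 to 322.4, did not overlap its Th2 arrays, from 53.1 to 113.8. It was the only 1 of the 23 member probe sets without overlap, against 1.96% of all probe sets. The third tested Itgb1 probe set was also higher in Th1, by 1.14 ± 0.15 (adjusted p = 0.00208). In the 3 pairs free of 3′ bias the Itgb1 difference was 1.38 and missed the threshold (adjusted p = 0.079).

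Itgb3, the beta 3 chain, was lower in Th1 cells in every pair. Th1 arrays read 1.5 and 1.0 at 12 h with DN Trpm4 and vector, 91.2 and 118.0 at 4 h, 12.6 and 10.4 with Trpm4 and Thy1 siRNA, and 315.6 untreated. Th2 arrays read 117.5 and 62.2, 268.1 and 349.8, 62.5 and 56.8, and 1080.0. The ranges overlapped, with the untreated Th1 array above 5 of the 7 Th2 arrays. The difference was -1.80 ± 0.20 (limma, 7 pairs, adjusted p = 0.000598), lower in 7 of 7 pairs, and the dimmer second probe set gave -0.50 ± 0.13 (adjusted p = 0.0412). Without the pairing the call was lost (adjusted p = 0.286).

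Itgb7, the beta 7 chain that pairs with Itga4 or Itgae, differed between cell types by very different amounts in the sets. Its signal in Th1 cells was 139.6 and 144.4 at 12 h, 856.8 and 793.0 at 4 h, 135.1 and 184.3 with Trpm4 and Thy1 siRNA, and 2472.6 untreated. In Th2 cells it was 1221.2 and 1172.9, 2453.0 and 2243.6, 570.1 and 577.4, and 2797.9. The untreated Th1 cells were close to untreated Th2 cells, whereas at 12 h both Th1 arrays were far below both Th2 arrays. The log2 difference ran from -2.99 at 12 h to -0.18 in the untreated pair and averaged -1.79 ± 0.30 (limma, 7 pairs, adjusted p = 0.00639).

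Itgae, the CD103 chain, showed the lowest fitted difference of the 10 genes. Th1 cells had 20.7 and 26.3 at 12 h, 196.4 and 241.3 at 4 h, 23.8 and 31.0 with Trpm4 and Thy1 siRNA, and 166.1 untreated. Th2 cells had 974.8 and 1122.1 at 12 h, 1909.5 and 1343.6 at 4 h, 62.7 and 65.1 with siRNA, and 440.8 untreated. All 7 pairs were lower in Th1, by -0.79 to -4.75, and the 4 retrovirus Th2 arrays stood above all other arrays. The mean difference was -2.60 ± 0.51 (limma, 7 pairs, adjusted p = 0.0134), and the second probe set gave -2.40 ± 0.48 (adjusted p = 0.0145). Both 12 h pairs compared a Th1 array without 3′ bias with a Th2 array that had it. Without those pairs the 4 gene calls stood. In the 3 pairs free of 3′ bias Itgb3 alone kept its call, with Itgb7 at -1.23 (adjusted p = 0.205) and Itgae at -1.03 (adjusted p = 0.0903). With the arrays of a cell type and set averaged first, Itgb7 (adjusted p = 0.159) and Itgae (adjusted p = 0.142) missed the threshold.

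**Figure D2:**
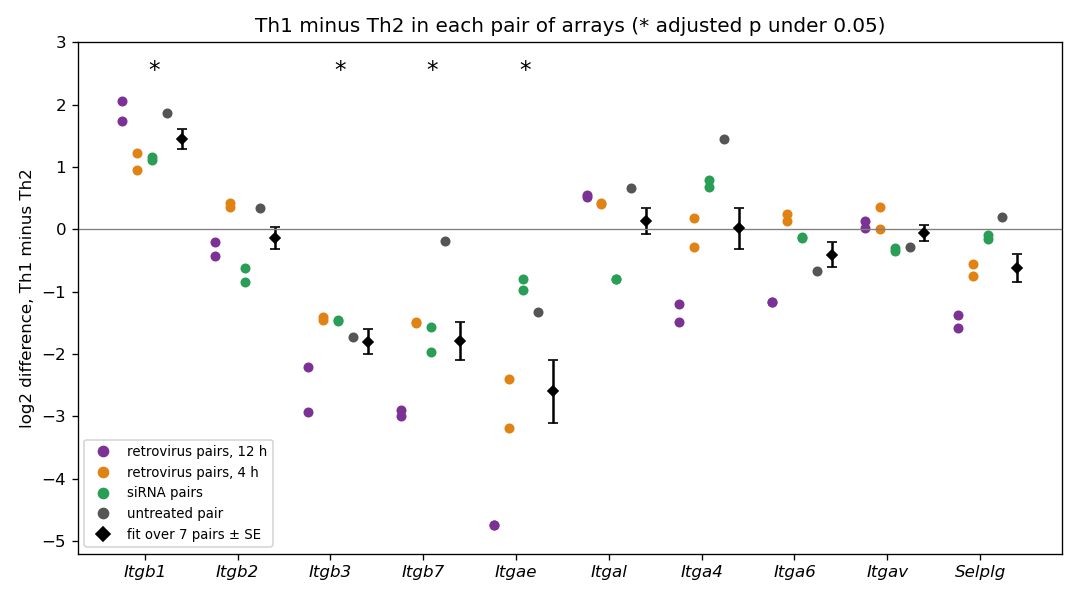
Log2 difference of Th1 minus Th2 in each of the 7 pairs (coloured points by set) and the limma estimate with its standard error (black diamonds) for the 10 member genes. Itgb1 is above 0, and Itgb3, Itgb7 and Itgae are below 0, in all 7 pairs, while Itga4 runs from 1.45 untreated to -1.48 at 12 h.

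The 2 chains of LFA-1 had no call between the cell types. Itgb2 lay between 1715.3 and 4189.4 in Th1 cells and between 2221.5 and 3304.1 in Th2 cells, with a fitted difference of -0.14 ± 0.18 (limma, 7 pairs, adjusted p = 0.659). Itgal lay between 1076.0 and 3547.2 in Th1 and between 1168.7 and 2234.1 in Th2, with a difference of 0.14 ± 0.21 (adjusted p = 0.709). Both were highest in untreated Th1 cells and lowest in Th1 cells with Trpm4 siRNA. The ranges overlapped for both chains.

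Among the other alpha chains, Itga4 had 61.3 to 1474.7 in Th1 cells and 161.7 to 531.5 in Th2 cells, and its pairs went both ways, for a mean of 0.02 ± 0.33 (limma, 7 pairs, adjusted p = 0.97). Itga6 had 48.8 to 254.1 in Th1 and 80.5 to 231.1 in Th2, a difference of -0.41 ± 0.20 (adjusted p = 0.219). Itgav, with 743.4 to 2117.3 in Th1 and 910.0 to 1977.1 in Th2, had a difference of -0.06 ± 0.13 (adjusted p = 0.795). None of the 3 separated the cell types, and the sign for Itga4 turned to -0.02 on the deposited values and for Itgav to 0.02 after centring on the array median.

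Selplg ran from 425.8 to 4208.7 in Th1 cells and from 966.2 to 3673.5 in Th2 cells. It was lower in Th1 in 6 of 7 pairs, with a difference of -0.62 ± 0.22 that did not pass (limma, adjusted p = 0.107). The 12 h pairs were the widest apart, at -1.37 with DN Trpm4 and -1.58 with vector, and the untreated pair went the other way, at 0.20.

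The size of the difference between cell types varied with the set of arrays for several chains, as it did for many probe sets of the array. In a test added after seeing the data, the Th1 minus Th2 difference of the 4 h retrovirus pairs was set against that of the siRNA pairs, 2 pairs each. It was called for 4 of the 10 genes, each on 1 probe set, where 29.4% of all probe sets were called. With so few genes this is not read as a trait of the members. For Itgae the cell type difference was -2.79 at 4 h and -0.88 with siRNA. For Itgal it was 0.41 at 4 h and -0.80 with siRNA, and for Itgb2 0.39 and -0.73, so that both LFA-1 chains turned sign between the sets. For Itga4 it was -0.04 at 4 h and 0.74 with siRNA. The 4 h arrays had 3′ bias and the siRNA arrays did not, so bias, stimulation and transfection cannot be told apart here.

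Time was compared in Th2 cells, where all 4 retrovirus arrays had 3′ bias. Selplg, Itgb3 and Itgb7 were lower at 12 h than at 4 h, by 2.56-fold, 3.16-fold and 1.95-fold on the log2(normalised signal + 16) scale, and no member gene was higher. Counted by probe set, 4 of 23 were called, all lower, against 6.26% of all probe sets. Selplg had 1222.1 and 1309.4 at 12 h with DN Trpm4 and vector, and 3449.6 and 3084.7 at 4 h. Itgb3 had 117.5 and 62.2 at 12 h and 268.1 and 349.8 at 4 h, and Itgb7 had 1221.2 and 1172.9 at 12 h and 2453.0 and 2243.6 at 4 h. The times did not overlap for these 3 genes. Nor did they for any other member except Itgb1, read on the probe set of highest mean, so this does not set the 3 apart. The share of all probe sets without overlap of the 2 arrays at each time was not counted, so nothing is read from it.

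The limma differences of 12 h minus 4 h in Th2 cells were -1.36 ± 0.19 for Selplg (2 pairs, adjusted p = 0.00149), -1.66 ± 0.24 for Itgb3 (adjusted p = 0.002) and -0.96 ± 0.18 for Itgb7 (adjusted p = 0.00897). The fourth probe set called was a dim one of Itgav, at -0.69 ± 0.18 (adjusted p = 0.0459), while its brightest probe set had -0.60 ± 0.19 (adjusted p = 0.0861). Itga6 had -0.67 ± 0.19 (adjusted p = 0.051) and Itgae -0.61 ± 0.21 (adjusted p = 0.116). Itgb1 was at 0.19 ± 0.19. With 1 residual degree of freedom the calls lean on the variance shared over all probe sets, and with a pseudocount of 1 in place of 16 no probe set of the array passed. Of all calls 42.8% were higher at 12 h, against 29.6% on deposited and 31.9% on median-centred values. In Th1 cells, whose 12 h arrays lacked the 3′ bias, 12 h minus 4 h was averaged with no test. The mean was -2.19 for Selplg, -2.41 for Itgb7, -2.57 for Itgae, -2.02 for Itga6 and -1.71 for Itga4. Itgb3 was lower too, but its 1.5 and 1.0 at 12 h lay near the floor, so no size is read from it. Itgb1 was higher at 12 h in both Th1 pairs.

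The siRNA arrays were set against the untreated arrays, both free of 3′ bias. Transfection and any difference in stimulation cannot be told apart here. Of 6 Th1 markers 1 was higher with siRNA, Ifng (3.54 on the log2 scale, limma adjusted p = 0.00222), and 3 were lower. These were Il18r1 (-2.08, adjusted p = 0.0105), Il12rb2 (-1.01, adjusted p = 0.00649) and Stat4 (-0.92, adjusted p = 0.00391). Of 6 Th2 markers Il13 was higher (4.89, adjusted p = 0.00193) and 0 lower. Their part in the result was not tested. Itgb3, Itgb7, Itgae, Selplg and Itga4 were lower with siRNA in both cell types, and no member gene passed as higher on its brightest probe set. Itgb3 fell to 12.6 and 10.4 in Th1 and 62.5 and 56.8 in Th2, against 315.6 in untreated Th1 and 1080.0 in untreated Th2 cells. Selplg fell to 904.7 and 893.6 in Th1 and 966.2 and 1000.3 in Th2, against 4208.7 and 3673.5 untreated. For these genes every siRNA array was below both untreated arrays, as it also was for Itgb2 and Itgal, which were not called. The share of all probe sets that parted in this way was not counted, so it is not read as a trait of the members. The limma differences were -3.73 ± 0.14 for Itgb3 (adjusted p = 0.000366), -3.05 ± 0.36 for Itgb7 (adjusted p = 0.00275) and -2.29 ± 0.16 for Itgae (adjusted p = 0.000952). Selplg had -2.05 ± 0.14 (adjusted p = 0.000915) and Itga4 -1.26 ± 0.19 (adjusted p = 0.00517). The Itga4 call was lost without the block for cell type (adjusted p = 0.0773). The brightest Itgav probe set was at 0.31 ± 0.12 (adjusted p = 0.0979), with both cell types higher and no overlap of the groups. It passed at 0.82 on deposited values (adjusted p = 0.00525) and at 0.62 on median-centred values (adjusted p = 0.0163).

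In siRNA minus untreated 9 of the 23 member probe sets were called, 7 lower and 2 higher, a share near the 38.3% of all probe sets. Probe sets of a gene parted here: for Itgb1 the brightest was at -0.14 ± 0.19 (adjusted p = 0.595) and a dimmer one at 2.30 ± 0.17 (adjusted p = 0.000952), and for Itga4 none of the other 3 tested probe sets passed, at -0.35 to 0.51. A second Itgav probe set was higher with siRNA, by 1.06 ± 0.23 (adjusted p = 0.017). T cell markers such as Cd3d and Cd3e were lower too, 6 of 7 of them, with a list median of -1.24, and their part in the result was not tested. Of all calls 55.3% were higher with siRNA, against 74.9% on deposited and 60.1% on median-centred values, and the median of all probe sets was 0.04, 0.28 and 0.09 in the same order. Leaving out the untreated Th2 array raised the member genes called to 8. A single untreated array per cell type carries the comparison.

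Th1 cells at 12 h of retrovirus were compared with Th1 siRNA cells, 2 arrays against 2, none with 3′ bias. Itga4 was lower at 12 h by 5.99-fold, with 61.3 and 69.4 for DN Trpm4 and vector against 463.3 and 478.7 for Trpm4 and Thy1 siRNA. Selplg was lower as well, with 461.9 and 425.8 against 904.7 and 893.6, and Itgal was higher, with 1688.4 and 1806.7 against 1076.0 and 1139.9. None of these groups of 2 arrays overlapped, but neither did those of Itgb1, which was not called (-0.24 ± 0.12, limma adjusted p = 0.165). The share of all probe sets without such overlap was not counted. The differences were -2.58 ± 0.11 for Itga4 (limma, adjusted p = 0.000212), -0.99 ± 0.10 for Selplg (adjusted p = 0.00126) and 0.65 ± 0.11 for Itgal (adjusted p = 0.00533). Itga6 (-0.45 ± 0.10, adjusted p = 0.0145) was lower too, and Itgav (0.45 ± 0.10, adjusted p = 0.0172) was higher. Leaving out either 12 h array ended the Itga6 call, and leaving out any 1 of the arrays ended the Itgav call. Itgb3 was called as well, but its 1.5 and 1.0 at 12 h and 12.6 and 10.4 with siRNA all lay below the array median, so no size is read from it.

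For Itga4 the other 3 tested probe sets were also lower at 12 h, by -0.87 to -2.73. In all, 14 of 23 member probe sets were called, 4 higher and 10 lower, against 46.2% of all probe sets. All 7 T cell markers were higher at 12 h (median 0.91) and all 3 tested CD8 and NK markers lower (median -2.18), and their part in the result was not tested. Of all calls 48.1% were higher, against 35.5% on deposited and 37.0% on median-centred values, where Itgal was at 0.21 and 0.23, Itgav was at 0.06 and 0.08, and both lost their calls. The median of all probe sets was -0.05, and -0.18 on the deposited values. Vector, stimulation and siRNA transfection cannot be told apart in this comparison.

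**Figure D3:**
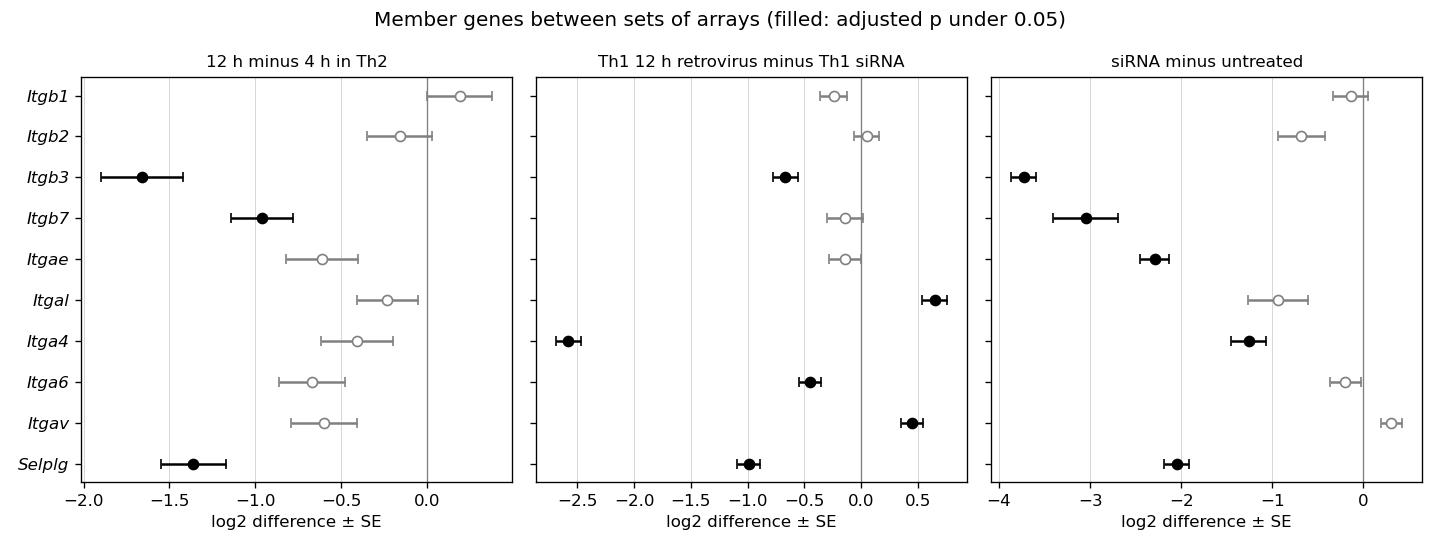
Log2 difference with its standard error for the 10 member genes between sets of arrays: 12 h minus 4 h in Th2, Th1 12 h retrovirus minus Th1 siRNA, and siRNA minus untreated, with filled points for adjusted p under 0.05. Selplg is below 0 and filled in all 3 panels, and Itga4 is at -2.58 in the middle one, where the Itgb3 point rests on signals below the array median.

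Of the 23 member probe sets, 4 did not overlap between the 6 arrays with 3′ bias and the other 8. This share was no higher than the 23.4% of all probe sets. On the biased arrays 2 of the 4 were higher and 2 lower. All 6 biased arrays were also stimulated retrovirus arrays, and the part of the bias itself in this split was not tested. The second Itgal probe set had 56.6 to 87.0 on biased arrays and 179.5 to 1147.6 on the others, and 1 of Itgav had 6.04 to 18.6 and 52.2 to 133.5. Both Itga6 probe sets were higher on the biased arrays, at 129.1 to 254.1 against 48.8 to 118.8 for the brighter. The 2 Th1 arrays at 12 h were among the 8 unbiased arrays. For probe sets picked as not overlapping, their values had to lie on the unbiased side. With DN Trpm4 and vector these 2 arrays read 393.8 and 369.3 for that Itgal probe set. They read 86.4 and 97.2 for that of Itgav, and 49.2 and 48.8 for the brighter one of Itga6.

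Inhibition of Trpm4 changed no member gene past the threshold. Over 6 pairs of an inhibited and a control array, differences ran from -0.08 to 0.06 on the log2 scale across the 10 genes, with standard errors up to 0.13. Nor was any of the 29467 probe sets called, so that the share called was 0% over both cell types, in Th1, in Th2, for the difference between them, for DN Trpm4 minus vector and for Trpm4 siRNA minus Thy1 siRNA (limma). At an unadjusted p under 0.05 there were 1733 probe sets over both cell types, 928 in Th1, 1824 in Th2, 1032 for the difference, 997 for DN Trpm4 and 3318 for siRNA. On its brightest probe set none of the 10 member genes was among them in any of these comparisons, while dimmer probe sets of Itga4 and Itgav were.

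Itgal had 1 direction in all pairs. It read 1688.4 with DN Trpm4 and 1806.7 with vector in Th1 at 12 h, 1832.9 and 1934.0 at 4 h, and 1076.0 with Trpm4 siRNA and 1139.9 with Thy1 siRNA. In Th2 cells it read 1168.7 and 1227.9 at 12 h, 1363.1 and 1457.6 at 4 h, and 1884.5 and 1989.3 with siRNA. The inhibited array was lower in 6 of 6 pairs by -0.07 to -0.10, a mean of -0.08 ± 0.06 (adjusted p = 0.904), less than the median difference of 0.103 to 0.178 that such pairs showed over all probe sets. The second Itgal probe set was at 0.02 ± 0.09, with 4 of 6 pairs lower.

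A dim Itga4 probe set was higher on the inhibited array in 6 of 6 pairs, by 0.15 to 0.73, a mean of 0.43 ± 0.09 (unadjusted p = 0.000534, limma adjusted p = 0.809). The other tested Itga4 probe sets had means of -0.04 to 0.14. A dim Itgav probe set had a mean of 0.29 ± 0.10 (limma, unadjusted p = 0.0165, adjusted p = 0.809), with pairs from -0.21 to 0.72. Itgae was lower in all 3 Th1 pairs, by -0.24 ± 0.13 (adjusted p = 1), and in Th2 cells averaged 0.09 (adjusted p = 0.934). The difference between the cell types, -0.33, did not pass (adjusted p = 1).

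**Figure D4:**
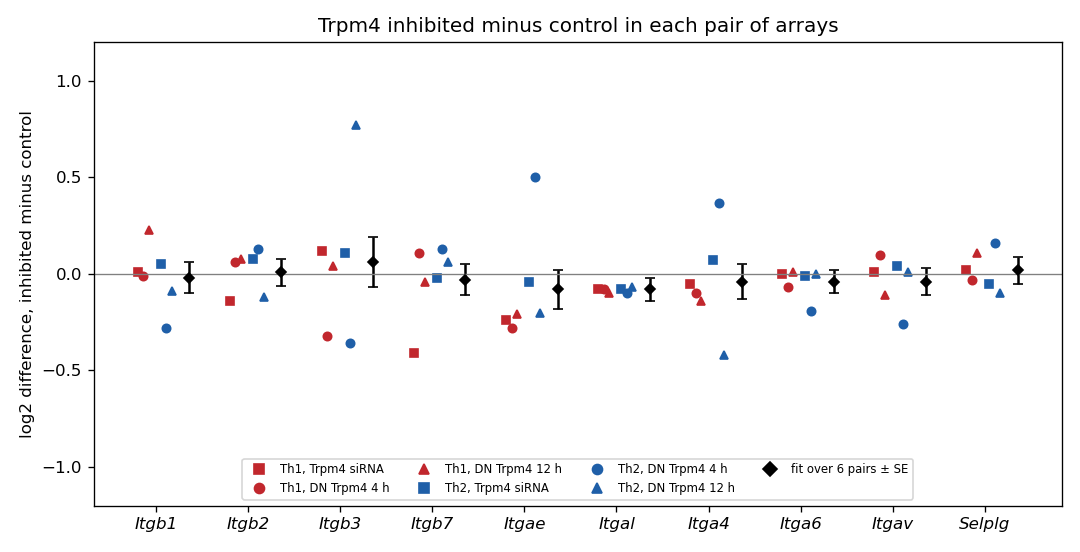
Log2 difference of the Trpm4-inhibited minus the control array in each of the 6 pairs (Th1 red, Th2 blue, shapes for siRNA and for DN Trpm4 at 4 h and 12 h) and the limma estimate with its standard error (black diamonds). The estimates lie between -0.08 and 0.06, and the widest single pair is Itgb3 in Th2 at 12 h, at 0.77.

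Over the 14 arrays several members moved together, as a description over points that share cell types and sets. Pearson's r of log2 values was 0.95 for Itgb3 with Itgb7 (0.97 over the 8 arrays without 3′ bias), 0.93 for Itgb3 with Selplg (0.94) and 0.85 for Itgb7 with Itgae (0.96). The LFA-1 chains Itgb2 and Itgal had 0.75 (0.86). Itgb1 ran against Itgae, at -0.85, but at -0.40 without the biased arrays. The gene outside the members with the pattern most like Itgb1 was Gzmd (r = 0.984), a granzyme gene, and that of Itgb7 was Rasal3 (0.997). For Selplg it was Foxo1 (0.987), a transcription factor of resting lymphocytes, for Itgb3 Rnf114 (0.980) and for Itgae Ints6l (0.974).

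The machinery around the integrins was read from gene lists, each gene on its probe set of highest mean. Of 18 tested genes that activate integrins, 6 were lower and 1 higher in Th1, where 9.79% of all probe sets were called. The list median was -0.40, against 0.01 over all probe sets. Skap1, an adaptor that links the T cell receptor to LFA-1, was at -1.63 ± 0.29 (limma, 7 pairs, adjusted p = 0.00882), and its relative Skap2 at -1.17 ± 0.30 (adjusted p = 0.0408). Fermt3, the kindlin of blood cells, was at -0.65 ± 0.14 (adjusted p = 0.0209), and Rap1b, a small GTPase of inside-out activation, at -0.63 ± 0.15 (adjusted p = 0.0321). Without the 12 h pairs 1 of the 18 was lower and 0 higher, and with the arrays of a set averaged first or with the 3 unbiased pairs 0 were called in either direction.

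Of 12 genes of integrin-linked signalling 4 were lower and 0 higher in Th1, where 9.79% of all probe sets were called. Vcl, the actin linker vinculin, was at -1.67 ± 0.23 (limma, 7 pairs, adjusted p = 0.00244) and Ptk2b, a focal adhesion kinase family member, at -0.84 ± 0.19 (adjusted p = 0.0258). Without the 12 h pairs, without the pair block or with the 3 unbiased pairs 1 was lower, and with arrays averaged by set 0 were called.

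Of 15 genes for selectin ligands and their synthesis 4 were lower and 1 higher in Th1, where 9.79% of all probe sets were called. Cd24a, a small mucin-like ligand of P-selectin, was at -2.36 ± 0.24 (limma, adjusted p = 0.00044). Tpst1, an enzyme that adds sulphate to tyrosines, was at -1.90 ± 0.20 (adjusted p = 0.000467), and St3gal1, a sialyltransferase, at -1.59 ± 0.11 (adjusted p = 5.01e-05). Cd44, the hyaluronan receptor, was at 0.92 ± 0.11 (adjusted p = 0.00124). Fut7 at 0.64 ± 0.18 (limma, adjusted p = 0.0562) and Gcnt1 at 0.51 ± 0.18 (adjusted p = 0.0967) were not called. Both were higher in Th1 in 6 of 7 pairs. The list median was -0.18, so the list as a whole had no 1 direction. Without the 12 h pairs 3 were lower and 1 higher, with arrays averaged by set or without the pair block 3 and 0, and with the 3 unbiased pairs 2 and 0.

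Among 12 tested integrin subunits outside the members 0 were called, against 9.79% of all probe sets. The widest differences were 0.58 ± 0.18 for Itga3 (limma, adjusted p = 0.0714) and 0.27 ± 0.17 for Itga5 on 1 side, and -0.74 ± 0.29 for Itgax (adjusted p = 0.136) and -0.35 ± 0.11 for Itgam on the other. Of 10 integrin ligand genes only Fn1, fibronectin, was called, at -0.88 ± 0.18 (adjusted p = 0.0148), a share near that of all probe sets. Without the 12 h pairs Fn1 lost its call (-0.78, adjusted p = 0.0921) and Icam1, a ligand of LFA-1, was higher (0.63, adjusted p = 0.0442). With the 3 unbiased pairs or with arrays averaged by set 0 of the 10 were called.

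Of 12 genes of TGF-beta signalling and the Runx family, which are known to regulate Itgae in T cells, 2 were lower and 1 higher in Th1, against 9.79% of all probe sets called. Runx1 was at -1.64 ± 0.23 (limma, adjusted p = 0.00253) and the receptor gene Tgfbr1 at -1.09 ± 0.12 (adjusted p = 0.000541), while Smad7, an inhibitor of the pathway, was at 0.75 ± 0.16 (adjusted p = 0.0177). Runx3 at 0.18 ± 0.30 (adjusted p = 0.722), Tgfb1 at 0.95 ± 0.63 (adjusted p = 0.355) and Tgfbr2 at -0.11 ± 0.23 (adjusted p = 0.786) were not called. A link of these genes to Itgae was not tested. Without the 12 h pairs 2 were lower and 2 higher, without the pair block 2 and 0, and with the 3 unbiased pairs or arrays averaged by set 1 and 0.

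**Figure D5:**
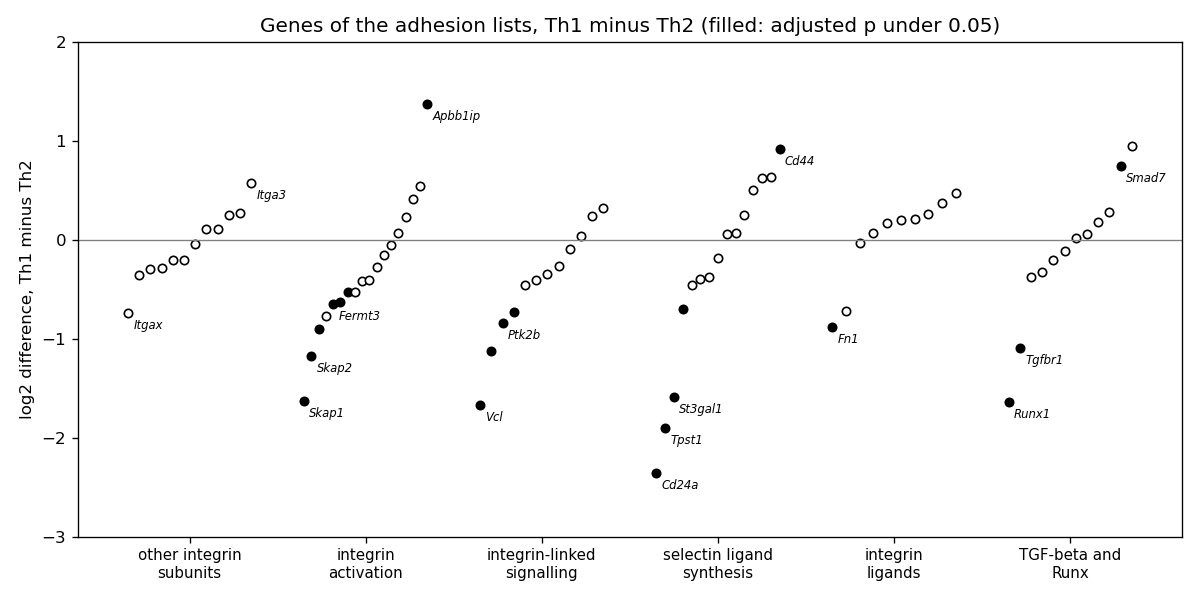
Log2 difference of Th1 minus Th2 for each tested gene of 6 lists around the integrins and Selplg, ordered by value within a list, with filled points for adjusted p under 0.05. Cd24a at -2.36 is the lowest point and Apbb1ip, an adaptor of the small GTPase Rap1, at 1.38 the highest.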

How the data were processed

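RNA was extracted with Trizol and labelled with biotin by the standard Affymetrix protocol, per the labels. The authors deposited 1 table with an intensity per probe set on a linear scale for each of the 14 arrays. The sources used here do not give the probe summary or the scaling. Genes were taken from the platform annotation, in which 34958 probe sets had 1 gene, 932 several (0 of them members') and 9211 no gene.

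Intensities were quantile normalised and taken as log2(value + 16). Probe sets above the array median on at least 2 arrays were kept (29467, of 13118 genes), leaving out 64 control probe sets, which were used to read 3′ bias. Comparisons were fitted with limma 3.58.1 (R 4.3.3), with the matched pair as a block where there was one, two-sided, with Benjamini-Hochberg adjustment over all probe sets kept. The fits were tested on simulated data. The 10 comparisons shared arrays. All probe sets of the 10 members were named, and the probe set of highest mean stood for a gene in counts of genes. Of each other list, up to 4 genes a direction were named with a call and 1 direction over all pairs, or up to 2 where none passed. Named outside that rule, after values were seen, were Apbb1ip, Cd3d, Cd3e, Cd5, Fut7, Gcnt1, Ifng, Il12rb2, Il13, Il18r1, Icam1, Runx3, Stat4, Tgfb1 and Tgfbr2. The members and lists were chosen with earlier results of these data known. Motif matches were exact letters on both strands.

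Vector and DN Trpm4 arrays of 1 cell type and time correlated at 0.987 to 0.996, and the siRNA arrays of a cell type at 0.990 and 0.991, so pairs are not independent. Alternatives were other scalings, filters, pseudocounts and variance settings, no pair block, subsets of pairs and leaving out each pair or array.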

Additional observations from a re-analysis of the deposited data

Results flagged for a closer look

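The Th1 minus Th2 difference changed with the set of arrays for 4 member genes, by a limma test of the difference itself that was chosen after seeing the data (4 h retrovirus pairs minus siRNA pairs, 2 pairs each). For Itgb2 the change was 1.12 ± 0.17 on the log2 scale (adjusted p = 0.00342), and for Itgal 1.21 ± 0.16 (adjusted p = 0.00191). In both, the 2 pairs at 4 h were higher in Th1 and the 2 siRNA pairs lower. For Itgae the change was -1.91 ± 0.26 (adjusted p = 0.00254), with all 4 pairs lower in Th1 but farther so at 4 h. For Itga4 it was -0.79 ± 0.20 (adjusted p = 0.0248). Selplg missed the threshold, at -0.52 (adjusted p = 0.0517). The share of all probe sets called was 29.4%, so such a change was common on the array and is not read as a trait of these genes. All 4 h arrays had 3′ bias while no siRNA array had it.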

How the results depend on the processing

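Of 396 alternative counts of calls 359 stayed within 1.5 times the reported one, and of 560 alternative values of member genes 496 kept direction and side of the threshold. In Th1 minus Th2 the calls of Itgb1, Itgb3, Itgb7 and Itgae stood under other scalings, filters, pseudocounts and variance settings, and without any 1 pair. Without the pair block 1 member gene, 2 member probe sets and 837 probe sets in all were called (Itgb3 adjusted p = 0.286, Itgb7 0.182, Itgae 0.103). With the 3 pairs free of 3′ bias it was 1, 2 and 319, with arrays averaged by set 2, 3 and 271, and without the 12 h pairs 1256 in all. Leaving out 1 pair gave 1450 to 2901 calls in all, with falls of over 1.5 times without either siRNA pair, either 12 h pair or the DN Trpm4 pair at 4 h. Itga4 turned to -0.02 on deposited values and with a pseudocount of 1, and ranged from -0.21 to 0.27 when 1 pair was left out. Itgav turned to 0.02 after median centring, and Itgal to -0.02 without the 12 h pairs and -0.31 with the unbiased pairs. In 12 h minus 4 h in Th2, no filter left 1 member gene, 1 member probe set and 399 calls in all, a pseudocount of 1 left 0, and a variance trend gave 5 member genes. Trpm4 siRNA minus Thy1 siRNA had 4 calls with a pseudocount of 64 and 98 with a variance trend, with 0 members among them. In Th1 12 h minus siRNA, adding the untreated array gave 1 member gene, 3 member probe sets and 2098 in all, and leaving out 1 array gave 4 to 5, 7 to 11 and 9006 to 11692, with 7 member probe sets without either 12 h array and the lowest total without the vector one. There Itgb2 turned to -0.42 on deposited values (adjusted p = 0.0252), -0.40 after median centring (adjusted p = 0.0297) and -0.36 with the untreated array. Itgb1 gained a call at -0.51 and -0.49 on deposited and median-centred values (adjusted p = 0.0168 and 0.018). Itga6 lost its call without either 12 h array (adjusted p = 0.0691 and 0.0726). Itgav lost its call in 7 of 13 alternatives, among them without any 1 of the arrays (adjusted p = 0.0523 to 0.0932). Without 1 array Itgb2 ranged from -0.03 to 0.12 and Itgb7 from -0.34 to 0.06. In siRNA minus untreated the filter at the 75th percentile gave 7488 calls, and leaving out 1 array gave 5 to 8 member genes, 8 to 16 member probe sets and 6833 to 17323 in all, the highest without the untreated Th2 array and falls of over 1.5 times without either Th1 siRNA array or the Th2 Trpm4 siRNA array. Itga4 lost its call without the block (adjusted p = 0.0773), Itgav gained one in 5 of 15 alternatives, Itgb1 turned to 0.12 on deposited values, and without 1 array Itgb1 ranged from -0.50 to 0.22 and Itga6 from -0.48 to 0.07. Apart from fewer pairs or probe sets in some settings, the cause of these changes was not tested. No paired analysis was possible by replicate number because the labels carry none. Signal over background limits dim probe sets, such as Itgb3 in Th1 cells at 12 h.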
